A study of Saccharomyces cerevisiae with 9 samples.

Results

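Yeast genes for ribosome assembly factors were examined as a group, taken by name as the genes whose standard name is UTP, NOP, RRP, NOC, NSA or RPF followed by a number. The rule found 60 genes among the 6268 features of the arrays. They comprise 18 UTP genes, whose name comes from U3 small nucleolar RNA-associated protein, 17 NOP genes named for nucleolar proteins, 18 RRP genes named for ribosomal RNA processing, and 7 genes named NOC, NSA or RPF. The test took in 59 of them, since RRP40 lacked a value on 1 of the 8 time course arrays. NOC4 is also known as UTP19 and NOP14 as UTP2, so the names do not divide the proteins cleanly by role.

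A eukaryotic ribosome is built in the nucleolus around a long precursor RNA, which is cut, modified and folded while ribosomal proteins are added. The small subunit forms within a large particle, the processome, to which UTP-A, UTP-B and UTP-C subcomplexes and the U3 box C/D particle contribute, whereas a separate set of factors carries the large subunit. In budding yeast the genes of these factors are known as one of the largest groups that are expressed together, high in growing cells and low under many stresses.

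Poly(A) RNA came from ypk1Δ ypk2Δ cells of Saccharomyces cerevisiae, which lack a pair of related protein kinases of the TORC2 pathway, grown without leucine. A plasmid supplied a wild-type (WT) kinase or an analog-sensitive (AS) form, whose widened ATP pocket accepts a bulky inhibitor that wild-type kinases exclude. In the Ypk1 series, AS Ypk1 cells (Cy5) were compared on 1 array each at 0, 15, 30 and 60 min with WT Ypk1 cells (Cy3), both in 0.5 µM 2,3-DMB-PP1. In the Ypk2 series, AS Ypk2 cells were compared with WT Ypk2 cells at the same times in 1 µM 3-MB-PP1. A ninth array compared WT Ypk2 cells (Cy5) with WT Ypk1 cells (Cy3) without inhibitor. Every condition is 1 array with no dye swap, the inhibitor differs between the series, and the kinases come from plasmids rather than their own loci.

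All values are log2 ratios of Cy5 over Cy3 after subtraction of the median of the array, so that 0 is the median feature and −1 is 2-fold lower in AS cells. The direction was read from the ninth array, where YPK2 read 5.49 while YPK1 read −4.33, and was taken to hold on the other 8. At 0, 15, 30 and 60 min YPK1 read 0.73, 0.82, 2.44 and 1.55 in the Ypk1 series. YPK2 read 1.06, 1.36, 1.53 and 1.36 in the Ypk2 series. RNA of the supplied kinase was thus higher in AS cells at every time, and its bearing on other genes was not tested. The times 15, 30 and 60 min served as 3 looks at the inhibited state, and their mean is called the ratio of a gene. Its SD (n = 3) and its p-value reflect how much the times differ, perhaps within 1 culture, not how much independent cultures would. A difference of the AS and WT strains that precedes the inhibitor is part of the ratio. Lower RNA per cell and fewer cells that make it cannot be told apart.

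In the Ypk1 series most assembly factor genes had less RNA in AS than in WT cells after inhibitor. In the Ypk2 series fewer were called, an order that depended on how the arrays were scaled. With AS Ypk1 the ratio was lower in AS cells for 32 of the 59 genes and higher for 0, by limma with an adjusted p under 0.05, against a background of 10.5% of all 6220 features called lower and 10.9% called higher. The other 27 did not pass. The median of the 59 ratios was −1.02, a 2.03-fold lower level, beside −0.01 over all features. With AS Ypk2, 21 genes were lower and 0 higher, with 38 not passing, against 4.73% of all features lower and 6.98% higher. Here the median was −0.74, or 1.67-fold lower, beside 0.01 over all features. Without the 30 min arrays 10 genes passed as lower for Ypk1 and 0 for Ypk2, when 1.93% and 0% of all features did. Without the 60 min arrays the counts were 18 and 0, with 2.64% and 0% of all features. Without the 15 min arrays they were 32 and 23, with 8.33% and 4.68% of all features. The later arrays had an SD over all features of 0.94, 0.81 and 0.88 for Ypk1 and 0.70, 0.67 and 0.78 for Ypk2. When arrays were scaled to the same spread, 28 genes were lower for Ypk1 and 29 for Ypk2, with 7.83% and 8.33% of all features. With quantile normalization the counts were 28 and 30, with 7.85% and 8.47%. With array weights 42 genes were lower and 9 higher for Ypk2, but so were 33.1% and 33.7% of all features.

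**Figure D1:**
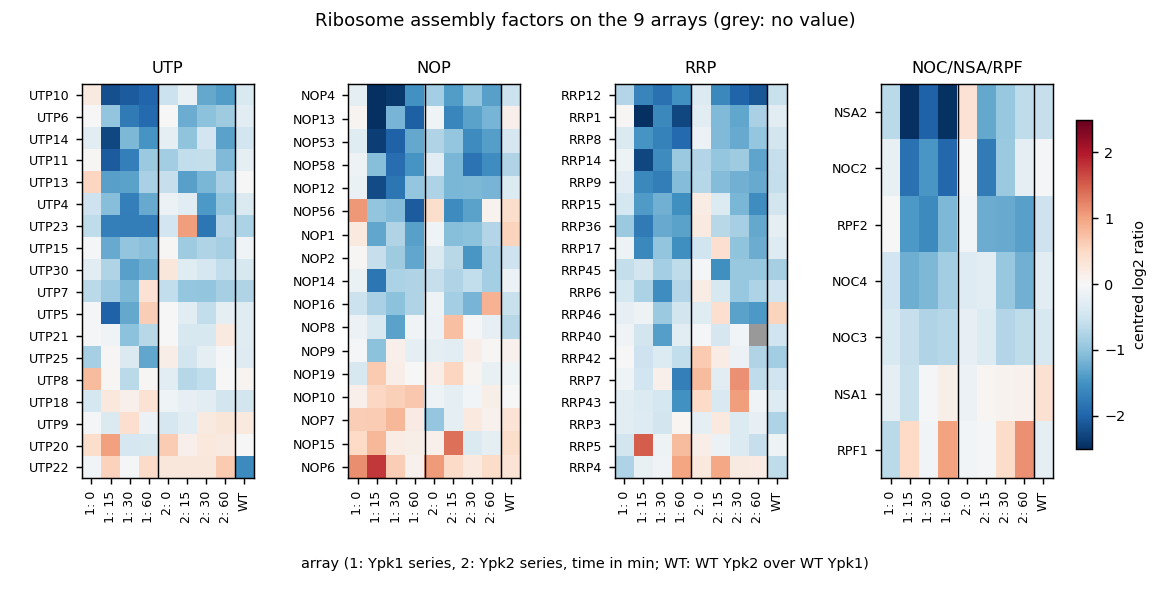
Centred log2 ratio of each of the 60 assembly factor genes (rows) on each of the 9 arrays (columns: Ypk1 series, Ypk2 series, then WT Ypk2 over WT Ypk1), in 1 panel per name class, with genes ordered by their mean over the 6 later arrays. Blue is lower in the Cy5 channel and red higher, and the colour scale stops at 2.5 in either direction. Blue fills most of the later columns of both series, and the 0 min columns are pale, with medians of −0.17 and −0.12.

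The difference was small at 0 min and present at every later time. Over all members the median was −0.17 at 0 min in the Ypk1 series, and −0.94, −1.06 and −0.89 at the later times. With AS Ypk2 the 4 medians ran −0.12, −0.39, −0.79 and −0.74. At 0 min no member was at least 2-fold lower on either array, where 1.60% and 0.0957% of all features were. At 15, 30 and 60 min 28, 32 and 27 of 60 members were at least 2-fold lower in the Ypk1 series, against 12.9%, 9.16% and 9.03% of all features. The Ypk2 counts were 17 and 21 of 60 and 17 of 59, against 3.69%, 4.24% and 6.62%. Few members were at least 2-fold higher: 2, 3, 0 and 1 over the 4 Ypk1 arrays, against 4.39%, 12.1%, 9.74% and 12.3% of all features, and 1, 2, 2 and 1 over the Ypk2 arrays, against 4.74%, 9.46%, 7.82% and 10.1%. Below 0 at all 3 later times were 39 of 59 members with AS Ypk1 and 35 with AS Ypk2, against 25.5% and 28.0% of all features. Below their own 0 min value at all 3 later times were 37 and 36 of 59 members, against 27% and 28.7% of all features.

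When each later mean was set against the lone 0 min array of its series, 0 members passed for either kinase, with 0.0482% of all features lower for Ypk1 and 0% for Ypk2. Before adjustment, 21 members had p under 0.05 in the Ypk1 series, all lower, and 10 in the Ypk2 series, 9 of them lower. Of all 6220 features 703 did for Ypk1, 391 of them lower, and 321 for Ypk2, 184 of them lower. The median change from 0 min was −0.83 and −0.43, and the smallest adjusted p from limma was 0.189 and 0.6. The ratio and the change from 0 min share the later arrays and are not independent results. Part of the lower level was already seen at 0 min for some genes: 2 of the 32 genes called for Ypk1 and 7 of the 21 called for Ypk2 had at least 50% of their later log2 ratio there.

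**Figure D2:**
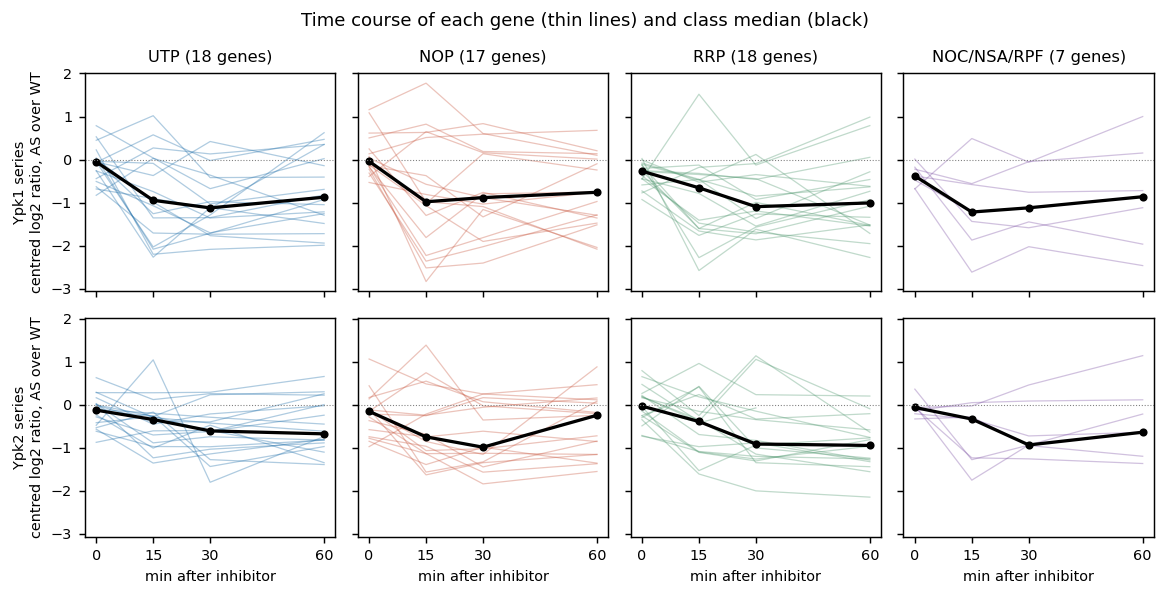
Centred log2 ratio, AS over WT, against minutes after inhibitor for every gene (thin lines) and the median of its name class (black), with the Ypk1 series above and the Ypk2 series below. In the Ypk1 series all 4 class medians are between −0.66 and −1.22 at 15 min, and in the Ypk2 series the medians reach their lowest point at 30 or 60 min.

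The name classes had similar medians in the Ypk1 series. There 9 of 18 UTP genes were lower (median −0.995), 9 of 17 NOP genes (median −0.92), 9 of 17 RRP genes (median −1.02) and 5 of 7 NOC, NSA and RPF genes (median −1.07). With AS Ypk2, 4 UTP genes were lower (median −0.47), 7 NOP genes (median −0.74), 8 RRP genes (median −0.79) and 2 NOC, NSA and RPF genes (median −0.81). Without genes on chromosomes VII to X, described next, these Ypk2 medians were −0.79 for UTP, −0.94 for NOP, −0.98 for RRP and −0.95 for NOC, NSA and RPF genes. No test was made between classes, because genes on the same arrays are not replicates. The RRP name joins different machines. Among 6 tested RRP genes of the exosome, the complex that trims and degrades RNA from its 3′ end, 1 was lower in each series (medians −0.58 and −0.47). Of the other 11, 8 were lower with AS Ypk1 and 7 with AS Ypk2 (medians −1.45 and −1.02).

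A further property went with the values and was noticed only after they were seen. Among the 15 members whose systematic names place them on chromosomes VII, VIII, IX or X, 1 was lower in each series, UTP10 in both, and the median ratios were −0.03 and −0.02. Of the 44 tested members on other chromosomes, 31 and 20 were lower, with medians of −1.26 and −0.93. Over all features the share called lower was 11.6% and 4.03% on chromosomes VII to X and 10.2% and 4.94% elsewhere. Other assembly factors, which are no members, were split the same way: on chromosomes VII to X 8 of 28 were lower and 3 higher in the Ypk1 series (median −0.17), and elsewhere 60 of 88 were lower and 2 higher (median −1.17). The cytosolic ribosomal protein genes, a separate group with members on most chromosomes, showed a split before the inhibitor: the mean of both 0 min arrays had a median of −0.10 over 34 genes on chromosomes VII to X and 0.93 over 103 genes elsewhere. With the values of these chromosomes moved along the table by 1 to 100 rows in either direction, that median of 34 genes ran from −0.13 to 0.18. Other mismatches of row names and spots on these chromosomes were not tested, a limit that applies to every value of a gene there.

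**Figure D3:**
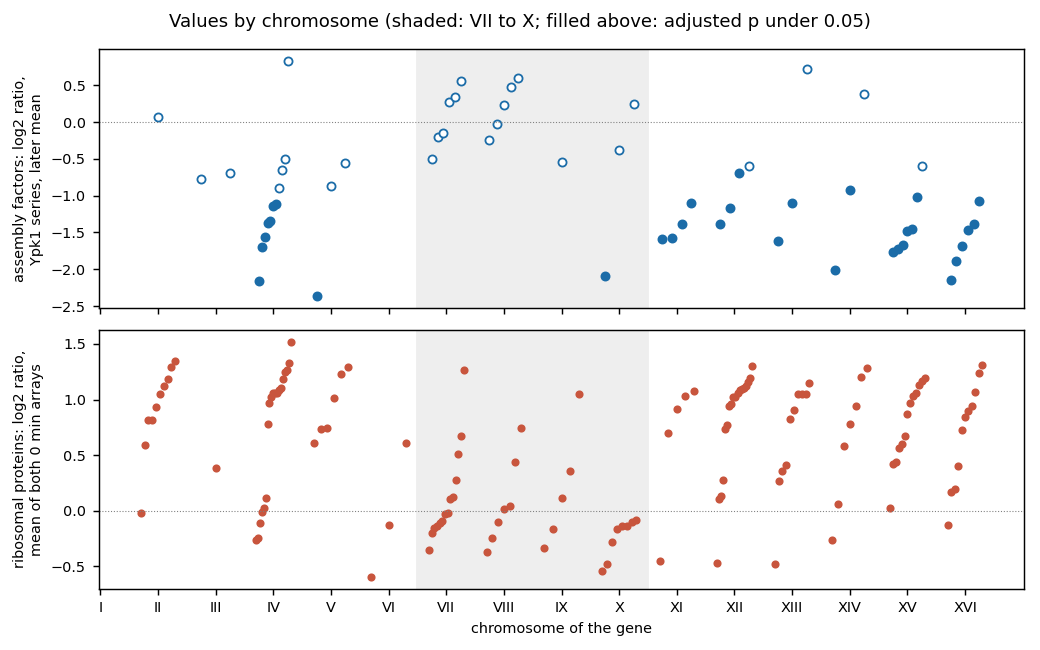
Upper panel, ratio in the Ypk1 series (mean of 15, 30 and 60 min, log2) of the 59 tested assembly factors by chromosome, filled where the adjusted p is under 0.05. Lower panel, mean log2 ratio of both 0 min arrays for the 137 ribosomal protein genes. Points are ordered by value within a chromosome and the shading marks chromosomes VII to X, which hold 1 filled point, UTP10, and a ribosomal protein median of −0.10.

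Genes of the UTP-A subcomplex, which binds the start of the precursor RNA and is needed for its transcription, were lower for 3 of 6 members with AS Ypk1 and 2 of 6 with AS Ypk2. UTP10 (YJL109C, chromosome X), a large repeat protein of this subcomplex, read 0.23 at 0 min and −2.20, −2.08 and −1.99 at 15, 30 and 60 min in the Ypk1 series. Its Ypk2 values were −0.53, −0.17, −1.28 and −1.39. The Ypk1 ratio of −2.09 ± 0.11 (SD, n = 3; adjusted p = 0.00207) is 4.26-fold lower, and none of the later values overlapped 0 min. Its Ypk2 ratio of −0.95 ± 0.67 just passed (adjusted p = 0.0492), with the 15 min value above that at 0 min. UTP4 and UTP15 were the other UTP-A genes called lower in the Ypk1 series, at −1.34 ± 0.32 and −1.09 ± 0.15, and UTP15 also passed in the Ypk2 series at −0.82 ± 0.07. UTP8 and UTP9, both on chromosomes VII to X, had Ypk1 ratios of −0.21 and −0.03 that did not pass. UTP5 read −2.03 at 15 min and 0.62 at 60 min in the Ypk1 series, and its mean of −0.90 did not pass (adjusted p = 0.16).

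The UTP-B subcomplex, which joins the precursor next, had 2 of 4 members lower in each series, UTP6 and UTP13. UTP6 (YDR449C, chromosome IV) read 0.02 at 0 min and −0.99, −1.77 and −1.94 later in the Ypk1 series, and 0.01, −1.23, −1.03 and −0.89 in the Ypk2 series. All 6 later values lay below both 0 min values, with ratios of −1.56 ± 0.51 (adjusted p = 0.00362) and −1.05 ± 0.17 (adjusted p = 0.024). UTP13 had ratios of −1.17 ± 0.31 and −1.10 ± 0.28. UTP18 (YJL069C, chromosome X), also of UTP-B, read −0.44, 0.27, 0.13 and 0.35 in the Ypk1 series, then −0.11, −0.20, −0.29 and −0.45 in the Ypk2 series. It was thus above 0 at all later Ypk1 times and below 0 at all later Ypk2 times, and neither ratio passed (0.25 ± 0.11, adjusted p = 0.359, and −0.31 ± 0.13, adjusted p = 0.32). Without centring, its Ypk1 ratio was −0.03.

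No gene of the UTP-C pair, UTP22 and RRP7, passed in either series. UTP22 (YGR090W, chromosome VII) read −0.06, 0.58, −0.02 and 0.47 in the Ypk1 series, then 0.28, 0.28, 0.29 and 0.66 in the Ypk2 series, the highest UTP gene by its later mean. Its ratios were 0.34 ± 0.32 (adjusted p = 0.27) and 0.41 ± 0.21 (adjusted p = 0.252). UTP22 was also the single member at least 2-fold lower on the array of WT Ypk2 against WT Ypk1 cells, at −1.59, where 2.35% of all features were. None was at least 2-fold higher there, against 2.74%. RRP7 ranged from −1.71 to 0.12 over the later Ypk1 times and from −0.64 to 1.14 over the later Ypk2 times.

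The box C/D and U3 genes were lower for 4 of 4 members with AS Ypk1 and 3 of 4 with AS Ypk2. These are NOP1, NOP56, NOP58 and RRP9, the proteins that clothe the small RNAs guiding rRNA methylation or, for RRP9, U3 itself. NOP58 (YOR310C, chromosome XV), a core protein of the particle, read −0.12, −1.07, −1.90 and −1.48 in the Ypk1 series, then −0.28, −1.14, −1.84 and −1.55 in the Ypk2 series. The series differed by less than 0.1 at each later time, and the ratios of −1.48 ± 0.42 (adjusted p = 0.00431) and −1.51 ± 0.35 (adjusted p = 0.00733) are 2.79-fold and 2.85-fold lower. NOP1, which holds the methylation activity, had ratios of −1.14 ± 0.33 and −0.94 ± 0.19, and RRP9 of −1.47 ± 0.34 and −1.18 ± 0.09. NOP56 stood above 0 at 0 min on both arrays, at 1.09 and 0.44, and reached −2.08 at 60 min in the Ypk1 series but 0.08 at 60 min in the Ypk2 series, where it did not pass (adjusted p = 0.121). SNU13, the remaining core protein of the particle and no member by name, was lower in both series at −0.79 ± 0.22 and −1.23 ± 0.31.

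NOP10 (YHR072W-A, chromosome VIII) belongs to the box H/ACA particle, which guides pseudouridine formation. It read 0.13, 0.51, 0.59 and 0.68 in the Ypk1 series, then −0.12, −0.24, −0.06 and 0.16 in the Ypk2 series. The Ypk1 ratio of 0.59 ± 0.08 was the least variable of the positive ones and just missed the threshold (adjusted p = 0.0546), and the Ypk2 ratio was −0.05 ± 0.20 (adjusted p = 0.897). Of the 3 other listed genes of this particle, CBF5, the pseudouridine synthase, was lower in both series, at −1.39 ± 0.48 and −1.42 ± 0.39. NHP2 (−0.51 ± 1.13 and 0.17 ± 0.42) and GAR1, also on chromosome VIII (0.56 ± 0.35 and −0.30 ± 0.26), passed in neither.

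**Figure D4:**
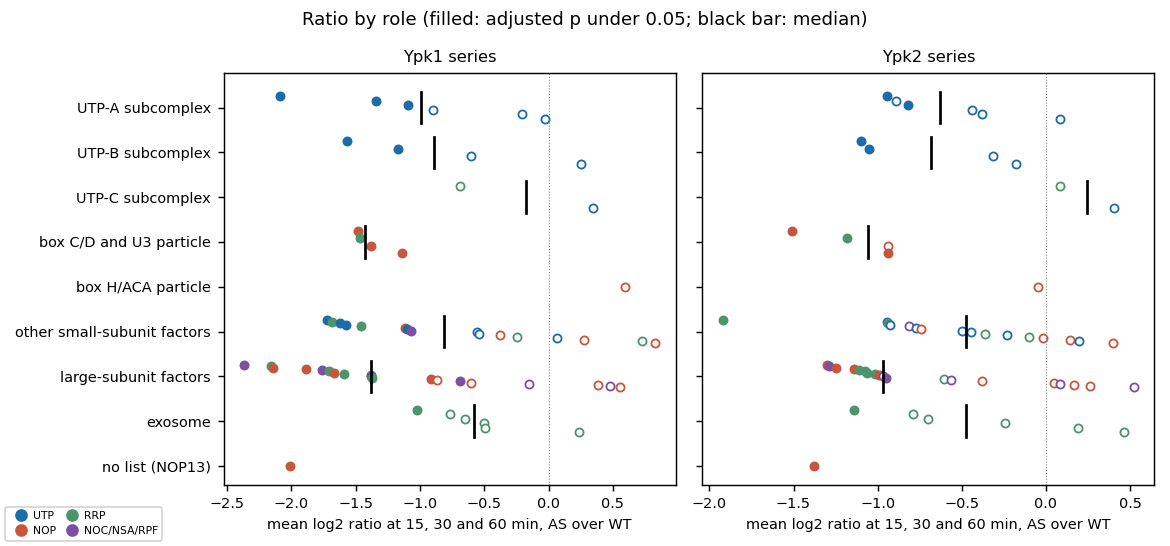
Ratio (mean log2 at 15, 30 and 60 min, AS over WT) of each tested gene by its role in ribosome assembly, for the Ypk1 series (left) and the Ypk2 series (right), coloured by name class, filled where the adjusted p is under 0.05, with a bar at the median where a role has over 1 gene. The box C/D and U3 genes lie together between −1.14 and −1.48 in the Ypk1 series, whereas large-subunit genes range from −2.37 to 0.56.

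Among 16 other small-subunit factors 8 were lower with AS Ypk1 and 2 with AS Ypk2, RRP12 and RRP36. RRP12 (YPL012W, chromosome XVI), which acts in the export of preribosomes, read −0.73, −1.66, −1.87 and −1.52 in the Ypk1 series, then −0.35, −1.61, −2.002 and −2.15 in the Ypk2 series. All later values were below −1.5, and the Ypk2 ratio of −1.92 ± 0.28 (adjusted p = 0.00241) ranked 4 from the lowest among all 6220 features. Its Ypk1 ratio was −1.68 ± 0.18 (adjusted p = 0.00194), rank 71.

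UTP14 (YML093W, chromosome XIII), which activates the helicase that takes U3 off the precursor, read −0.26, −2.27, −1.12 and −1.48 in the Ypk1 series, then −0.24, −1.01, −0.48 and −1.35 in the Ypk2 series. UTP11 (YKL099C, chromosome XI), another processome protein, read 0.04, −2.08, −1.71 and −0.93 and then −0.87, −0.61, −0.60 and −1.10. Both were lower in the Ypk1 series, at −1.62 ± 0.59 (adjusted p = 0.00518) and −1.57 ± 0.59 (adjusted p = 0.00472). In the Ypk2 series neither passed, and UTP11 was already at −0.87 at 0 min there. Both passed for Ypk2 when arrays were scaled or quantile normalized, or left without centring, as did NOC2 and NOC4.

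UTP23 (YOR004W, chromosome XV), which binds near the snR30 small RNA, read −0.63, −1.71, −1.73 and −1.72 in the Ypk1 series, then −0.48, 1.04, −1.80 and −0.74 in the Ypk2 series. The Ypk1 values were almost equal at the 3 later times, and the Ypk2 values spanned the widest range of any member in that series. Because the fit shares 1 variance between the series, the Ypk1 ratio of −1.72 ± 0.01 had an adjusted p of only 0.0249, and the Ypk2 ratio was −0.50 ± 1.44 (adjusted p = 0.508). The Ypk1 call was lost when arrays were scaled (ratio −1.34) or quantile normalized (ratio −1.35).

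NOC4 (YPR144C, chromosome XVI), which works with NOP14 on the small subunit, read −0.48, −1.22, −1.12 and −0.86 in the Ypk1 series, then −0.33, −0.29, −0.95 and −1.20 in the Ypk2 series. It was lower in the Ypk1 series at −1.07 ± 0.18 (adjusted p = 0.0133), and the Ypk2 ratio of −0.81 ± 0.47 did not pass (adjusted p = 0.053). NOC4 lies beside RRP15 in convergent orientation, the only members that are neighbours, and RRP15 was lower in both series at −1.38 ± 0.18 and −1.02 ± 0.62.

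A few small-subunit genes did not share the lower level. UTP20 (YBL004W, chromosome II), a large repeat protein of the processome, read 0.45, 1.02, −0.42 and −0.41 in the Ypk1 series, then 0.63, 0.12, 0.26 and 0.22 in the Ypk2 series. NOP6 (YDL213C, chromosome IV), an RNA-binding protein of early small-subunit precursors, read 1.16, 1.78, 0.61 and 0.10 and then 1.06, 0.48, 0.25 and 0.46. NOP6 was the highest member on both 0 min arrays, and neither gene passed in either series. RRP5 (YMR229C, chromosome XIII), which is needed for both subunits, read −0.45, 1.52, −0.13 and 0.79 in the Ypk1 series, then 0.16, −0.16, −0.35 and −0.58 in the Ypk2 series. Its Ypk1 values changed sign between times, and the ratio of 0.73 ± 0.82 did not pass (adjusted p = 0.111), nor did the Ypk2 ratio of −0.36 ± 0.22 (adjusted p = 0.476).

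Large-subunit factors were the role with the most genes called, 13 of 19 lower with AS Ypk1 and 10 of 19 with AS Ypk2, with medians of −1.38 and −0.97. NSA2 (YER126C, chromosome V), a protein of large-subunit precursors, read −0.67, −2.61, −2.02 and −2.46 in the Ypk1 series, then 0.36, −1.28, −0.94 and −0.64 in the Ypk2 series. Its Ypk1 ratio of −2.37 ± 0.31 (adjusted p = 0.00107) is 5.16-fold lower, the lowest of all members and rank 7 from the lowest among all features. The Ypk2 ratio was −0.95 ± 0.32 (adjusted p = 0.0265), a call lost when any 1 later time was left out. Every Ypk2 call was lost without 30 min or without 60 min, whereas 18 of the 21 called members still passed without 15 min.

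NOP4 (YPL043W, chromosome XVI), an RNA-binding protein of early large-subunit precursors, read −0.22, −2.52, −2.40 and −1.52 in the Ypk1 series, then −0.85, −1.39, −0.99 and −1.36 in the Ypk2 series. NOP53 (YPL146C, chromosome XVI), which brings the exosome to the precursor, read −0.31, −2.36, −2.02 and −1.29 and then −0.74, −0.97, −1.57 and −1.37. The Ypk1 ratios were −2.14 ± 0.55 (adjusted p = 0.0018) and −1.89 ± 0.55 (adjusted p = 0.00225). Both also passed for Ypk2, at −1.25 ± 0.22 and −1.30 ± 0.31, but were already at −0.85 and −0.74 at 0 min.

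RRP1 (YDR087C, chromosome IV), also of early large-subunit precursors, read 0.02, −2.58, −1.62 and −2.27 in the Ypk1 series, then −0.26, −1.11, −1.31 and −0.81 in the Ypk2 series. RRP8 (YDR083W, chromosome IV), a methyltransferase of the large rRNA, read −0.37, −1.48, −1.69 and −1.95 and then −0.15, −1.10, −1.26 and −0.96. RRP14 (YKL082C, chromosome XI), found on precursors of both subunits, read −0.13, −2.28, −1.57 and −0.93 and then −0.73, −0.98, −0.89 and −1.32. All 3 passed in both series, with Ypk1 ratios of −2.16 ± 0.49, −1.70 ± 0.24 and −1.59 ± 0.67 and Ypk2 ratios of −1.08 ± 0.25, −1.11 ± 0.15 and −1.06 ± 0.23. RRP8 alone of the 3 was lowest at the last Ypk1 time, while RRP1 and RRP14 were lowest at 15 min.

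NOC2 (YOR206W, chromosome XV), which pairs with other NOC proteins, read −0.18, −1.87, −1.45 and −1.96 in the Ypk1 series, then −0.02, −1.75, −0.94 and −0.22 in the Ypk2 series. Lower at −1.76 ± 0.28 in the Ypk1 series (adjusted p = 0.00485), it was near 0 at 60 min in the Ypk2 series and did not pass there (−0.97 ± 0.77, adjusted p = 0.0628). RPF2 (YKR081C, chromosome XI), which helps to load the 5S rRNA, read 0.01, −1.44, −1.58 and −1.12 and then −0.06, −1.23, −1.26 and −1.37. It began near 0 on both arrays and stayed low throughout, with ratios of −1.38 ± 0.24 (adjusted p = 0.00282) and −1.29 ± 0.07 (adjusted p = 0.00674).

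The highest large-subunit members included RPF1, NSA1 and NOP15. RPF1 (YHR088W, chromosome VIII) read −0.68, 0.49, −0.06 and 1.00 in the Ypk1 series, then −0.06, −0.03, 0.46 and 1.14 in the Ypk2 series. NSA1 (YGL111W, chromosome VII) read −0.22, −0.56, −0.05 and 0.15 and then −0.15, 0.05, 0.08 and 0.11. NOP15 (YNL110C, chromosome XIV), an RNA-binding protein of large-subunit precursors, read 0.50, 0.82, 0.19 and 0.14 and then 0.13, 1.38, −0.36 and −0.25. None of the 3 passed in either series. NOP7, a partner of several large-subunit factors on chromosome VII, had ratios of 0.56 ± 0.32 and 0.05 ± 0.24 that did not pass either.

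Exosome genes gave a call each to RRP6 in the Ypk1 series, at −1.02 ± 0.45, and to RRP45 in the Ypk2 series, at −1.14 ± 0.34. RRP6 encodes the nuclear exonuclease of the complex and RRP45 a ring subunit. RRP4 (YHR069C, chromosome VIII), a subunit of the cap, read −0.77, −0.18, −0.09 and 0.99 in the Ypk1 series, then 0.26, 0.96, 0.23 and 0.20 in the Ypk2 series, and did not pass in either. RRP40 was not tested for want of the Ypk2 60 min value, and its Ypk1 values were −0.08, −0.46, −1.37 and −0.28. NOP13 (YNL175C, chromosome XIV), a nucleolar RNA-binding protein placed in none of the role lists, read 0.07, −2.83, −1.16 and −2.04 and then −0.10, −1.63, −1.35 and −1.16. The −2.83 was the lowest single value of any member, and both ratios passed, at −2.01 ± 0.84 (adjusted p = 0.00362) and −1.38 ± 0.24 (adjusted p = 0.0231).

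The series shared most of their called genes. Of the 59 members, 20 were lower in both series, against 3.10% of all features, 12 in the Ypk1 series alone, 1 in the Ypk2 series alone (RRP45) and 26 in neither. The shared 20 are 62.5% of those called for Ypk1 and 95.2% of those called for Ypk2. Over all features, 193 were lower in both series, out of 654 lower for Ypk1 and 294 lower for Ypk2. The correlation between the ratios was 0.81 across the members and 0.69 across all features, a description only, since genes share the arrays. For 45 of 59 members the Ypk1 ratio was the lower one, as it was for 3533 of 6220 features. On arrays scaled to the same spread, 28 members were lower for Ypk1 and 29 for Ypk2, against 7.83% and 8.33% of all features. Which series has more calls thus depends on the scaling. When the difference itself was tested with limma, 0 members and 0 of 6220 features (0%) passed. Before adjustment 6 of 59 members had p under 0.05, a share near that of all features, where 602 of 6220 did.

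NSA2 had the largest difference, −1.41 with a 95% interval from −2.11 to −0.72 and an adjusted p of 0.411. It was followed by UTP23 at −1.22 (−2.62 to 0.18) and UTP10 at −1.14 (−1.98 to −0.31). In the other direction RRP5 led at 1.09 (0.14 to 2.04), then NOP10 at 0.64 (0.04 to 1.25) and UTP18 at 0.56 (−0.03 to 1.16). The intervals are unadjusted, and their bounds lay 0.79 on the log2 scale from the estimate in the median gene. The inhibitors and their doses differed between the series, and kinase and inhibitor cannot be told apart.

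**Figure D5:**
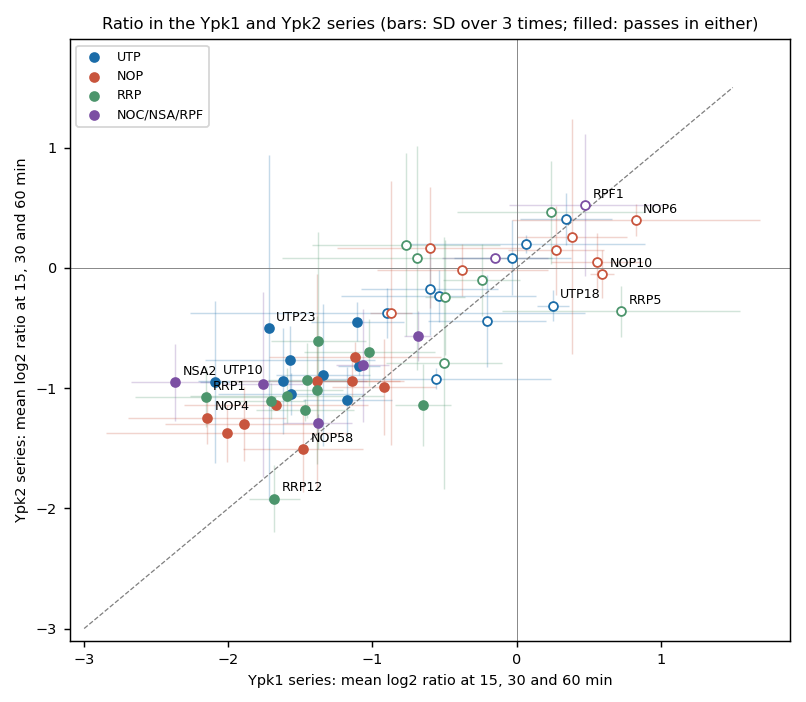
Ratio in the Ypk2 series against ratio in the Ypk1 series (both mean log2 at 15, 30 and 60 min) for the 59 tested genes, coloured by name class, with bars for the SD over 3 times, filled where the gene passes in either series, and a dashed line of equal ratios. Of the points, 45 lie above the line, that is, lower in the Ypk1 series.

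Of the 26 genes called in neither series, 14 are on chromosomes VII to X, where UTP10 was the only member called. The 12 elsewhere were NOP6, NOP8, NOP15, NOP16, RRP5, RRP7, RRP42, RRP43, UTP5, UTP7, UTP20 and UTP21. Several of these were low at some times and not at others. NOP16 read −0.53 at 0 min and between −0.76 and −1.03 at the later times of the Ypk1 series, but 0.88 at 60 min in the Ypk2 series. UTP7 read between −0.82 and −0.98 at the later times of the Ypk2 series but 0.35 at 60 min in the Ypk1 series. A gene called in neither series is therefore not shown to be unaffected.

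How closely a gene followed the rest was measured by the correlation of its 8 time course values with the median of the other members. It was over 0.8 for 17 of 59 members (28.8%) and for 2.95% of 6161 other features. UTP10 at 0.93, NOC3 at 0.92, RRP8 at 0.91, UTP4 at 0.91 and NOP53 at 0.89 followed most closely. The correlation was below 0 for 11 members and for 47.7% of the other features. NOP10 at −0.71, NOP7 at −0.62, RPF1 at −0.61 and UTP18 at −0.57 were the lowest, and all 4 are on chromosomes VII to X.

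The array without inhibitor asked whether the WT kinases differ in their effect. Values of the members ran from −1.59 to 0.56 with a median of −0.33, and 47 of 60 were below 0, that is, lower with WT Ypk2 than with WT Ypk1. By class the medians were −0.32 for UTP, −0.11 for NOP and −0.49 for RRP genes. The lowest after UTP22 were RRP42 at −0.86 and RRP45 at −0.82, both of the exosome. The highest were RRP46 at 0.56, also of the exosome, and NOP1 at 0.55. On this array 84 of 116 other assembly factors were below 0 (median −0.18), as were 56 of 137 ribosomal protein genes (median 0.13). Centring places 0 at the median of all features. With 1 array there is no test, and a dye effect cannot be told apart from an effect of the kinase.

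Other assembly factors, listed by role and without the names used here, were also mostly low in the Ypk1 series. Of 116 such genes, 68 were lower and 5 higher in the Ypk1 series (median −0.97), and 34 were lower and 2 higher in the Ypk2 series (median −0.59). MAK21, which pairs with NOC2, was lower in both at −2.12 ± 0.42 and −1.39 ± 0.07, as was NIP7, another large-subunit factor, at −1.91 ± 0.73 and −1.41 ± 0.30. MRD1 of the small subunit was lower at −1.56 ± 0.63 and −1.34 ± 0.28. LCP5, the divergent neighbour of NSA2, was lower in the Ypk1 series at −1.95 ± 0.61 and did not pass in the Ypk2 series at −0.86 ± 0.06. The remaining UTP-A and UTP-B proteins were represented by NAN1, lower in both series at −1.41 ± 0.06 and −0.95 ± 0.08, POL5, which passed in neither, PWP2, lower in the Ypk1 series at −1.85 ± 0.68, and DIP2, lower in both at −1.39 ± 0.21 and −0.93 ± 0.29. Of the Mpp10 subcomplex, IMP4 and MPP10 were lower in the Ypk1 series at −1.43 ± 0.83 and −0.87 ± 0.22. Among 7 further exosome genes 2 were lower in the Ypk1 series, SKI6 at −1.23 ± 0.23 among them, and 0 in the Ypk2 series. DIS3, the exosome's nuclease, passed in neither at −0.68 ± 0.49 and −0.65 ± 0.25.

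The list for RNA polymerase I, which makes the precursor RNA, holds initiation factors such as RRN3 as well as subunits. Of its 15 genes 7 were lower and 2 higher with AS Ypk1, and 4 lower and 2 higher with AS Ypk2. The 2 higher in both series were the subunits RPA34 (1.17 ± 0.51 and 1.26 ± 0.71) and RPA12 (1.27 ± 0.22 and 1.48 ± 0.58), both on chromosome X. RPA43 was lower at −2.17 ± 0.34 and −1.44 ± 0.04 and RPA190 at −1.70 ± 0.12 and −1.30 ± 0.49. Over all 6220 features 10.5% were lower and 10.9% higher in the Ypk1 series, and 4.73% and 6.98% in the Ypk2 series. Of the 137 ribosomal protein genes, 11 were lower and 12 higher in the Ypk1 series (median 0.17), and 13 lower and 1 higher in the Ypk2 series (median −0.28). Their medians at 0 min were 0.68 and 0.65, against −0.17 and −0.12 for the assembly factors. Measured as a change from 0 min, their medians were −0.44 for Ypk1 and −0.94 for Ypk2, beside −0.83 and −0.43 for the assembly factors. Of the 137, 101 and 119 were below 0 and 0 passed in limma, with 18 and 30 at an unadjusted p under 0.05. Of all 6220 features, 3084 and 2960 were below 0, and 703 and 321 had an unadjusted p under 0.05 in limma.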

How the data were processed

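Each deposited value is a log2 ratio of an array's Cy5 and Cy3 channels. No label gives the scale. Read as log2, 100% of the ratios under 0.9 fall on a grid of 0.001, and read as log10, 7.28% do. Normalization, scanner and array design are not given in the sources used here, and intensities were not used. Channels and treatments come from the labels. Each array was centred on its median (as deposited, −0.52 to 0.23). Precision is limited by how many arrays there are. No pair of arrays correlated below 0 (lowest r 0.13).

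Features were named by systematic name through the R64 annotation (5777 of 6268 matched, 491 kept the table name). Limma 3.58.1 in R 4.3.3 was fitted to 8 arrays and 6220 features complete on them (48 left out), with 4 group means (either kinase, 0 min or later), 4 residual degrees of freedom, and Benjamini-Hochberg adjustment over all 6220 features at 0.05. The lone 0 min arrays are assumed to vary like the others. In simulated data (6220 features, 200 changed, 5 runs) the Ypk1 ratio test recovered 53.2%, 99.6%, 100% and 100% of ratios of −1, −2, −3 and −4 with 11.2 false calls, and the test of the difference 12%, 91.2%, 99.2% and 100% with 10. The simulated noise was independent between arrays, and unchanged features had a true ratio of 0. Real arrays may share a culture and strain differences that precede the inhibitor, so these rates need not hold for them.

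Values on every array are given for the 4 lowest and 2 highest genes of each name class by their mean over the 6 later arrays and for the 3 largest differences between series in each direction. From each list of other factors the 2 lowest were named. Other genes were named after their values were seen. Members and lists were chosen with earlier results of these data known, and role lists were written from general knowledge. Alternatives changed the centring, scaling, weights, variance estimate, baseline and times used.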

Additional observations from a re-analysis of the deposited data

How the results depend on the processing

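Calls depended most on the 30 and 60 min arrays and on array weights, and the medians of the members stayed below 0 under all settings tried, with array weights (−0.995 and −0.85 for all members, computed after seeing the data) included. Members lower in the Ypk1 series numbered 32, and from 10 to 32 when 1 later time was left out (10 without 30 min, 18 without 60 min, 32 without 15 min). In the Ypk2 series they numbered 21, and from 0 to 23 (0 without 30 min or 60 min, when 0 of 6220 features passed in either direction). With scaled arrays 28 members were lower for Ypk1 and 29 for Ypk2, against 7.83% and 8.33% of all features. Quantile normalized, the counts were 28 and 30, against 7.85% and 8.47%, so the Ypk1 series no longer had more calls. With array weights, whose estimation stopped before it converged, 42 members were lower and 9 higher in the Ypk2 series, as were 33.1% and 33.7% of all features. With these weights 2 and 4 of 59 members changed from 0 min for Ypk1 and Ypk2, against 1.41% and 2.56% of all features. The median Ypk1 ratio of all members (−1.02) was −1.30 without centring, −0.82 scaled, −0.78 quantile normalized and −1.27 without chromosomes VII to X, an alternative chosen after seeing the data. In that order it was −1.28, −0.76, −0.76 and −1.15 for UTP genes (−0.995, and −0.84 without 30 min), −1.20, −0.72, −0.72 and −1.15 for NOP genes (−0.92), −1.30, −0.82, −0.78 and −1.39 for RRP genes (−1.02), and −1.35, −0.83, −0.82 and −1.39 for NOC, NSA and RPF genes (−1.07). Without centring the medians of all features were themselves −0.29 and −0.28, 19.3% of features were lower and 5.59% higher in the Ypk1 series, and the Ypk2 median was −1.03 for all members (−0.74) and −0.77 for UTP genes (−0.47). The UTP median in the Ypk2 series was −0.65 without 15 min and −0.79 without chromosomes VII to X. Some ratios that pass no test turned sign. Without centring these were NOP15 (Ypk2, −0.032), NSA1 (Ypk2, −0.21), RRP4 (Ypk1, −0.043), UTP18 (Ypk1, −0.030) and UTP20 (−0.22 and −0.094). With weights they were NOP15 (Ypk2, −0.29) and UTP20 (Ypk1, −0.13). Without 15 min they were NOP10 (Ypk2, 0.048), NOP15 (Ypk2, −0.30), NSA1 (Ypk1, 0.052) and UTP20 (Ypk1, −0.41), without 30 min UTP23 (Ypk2, 0.15), and without 60 min RRP4 (Ypk1, −0.14). The cause of these shifts was not tested. Pairing by replicate number was not possible because every condition is replicate number 1, with 1 array each. With the later arrays of the series matched by time as a block instead, 0 of 59 members and 0 of 6220 features (0%) passed for a difference between the series. The planned search for promoter motifs was not run.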

Other observations

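Of the ribosomal protein genes, 24 pairs of near-identical copies have 1 copy named for chromosomes VII to X and the other elsewhere. Averaged over both 0 min arrays, the copy elsewhere was the higher one in 19 of the 24 pairs, with medians of 0.76 for the copies elsewhere and −0.07 for those on chromosomes VII to X. Copies of a pair may share signal on an array. The spread of all features was alike in both parts of the genome, with an SD of the Ypk1 ratio of 0.72 on chromosomes VII to X and 0.73 elsewhere, and the correlation between the ratios of both series was 0.74 and 0.68. These values were looked at after the pattern among the assembly factors was seen. With these values moved along the table by a constant number of rows, up to 100, the ribosomal protein median there ran from −0.13 to 0.18. A shift of this kind covers no swapped, scattered or varying mismatch of names and spots, and other sources were not tested.

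Of the 60 assembly factor genes, 9 lie next to another member or a listed factor. The divergent pair NSA2 and LCP5 had Ypk1 ratios of −2.37 and −1.95, and the tandem pair RSA3 and UTP13 of −1.43 and −1.17. In the tandem pair PWP1 and NOP56 the ratios were −0.47 and −1.38. On chromosome VIII the ratios were −0.24 and −0.03 for RRP3 and SSF1, 0.48 and 0.56 for RPF1 and GAR1, and −0.03 and −0.46 for UTP9 and RIX1.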
